A study of Mus musculus with 22 samples.

Results

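Myelin genes encode the proteins that mature oligodendrocytes use to build and hold the insulating sheath around axons. Here 9 such genes were followed in NeuN-sorted nuclei of the mouse hippocampus 24 h after kainate: Mbp, Mobp, Mal, Cldn11, Cnp, Mag, Mog, Opalin and Ermn. They were taken by symbol from the deposited counts, where 9 of 9 were found and tested, of 53379 genes in the counts and 40714 tested. Adult male C57/BL6N mice, bought at 8 weeks of age and acclimatized for 4 weeks, received either kainate (70 nl, 20 mM) above the right hippocampus or, as sham mice, 0.9% NaCl at the same site. All mice had the same anaesthesia and buprenorphine, and kainate mice entered the study when they had shown convulsive seizures. The left hippocampi, contralateral to the injection, of 8 mice per treatment were pooled into 3 samples of 4 or 2 mice, from which NeuN, a protein of neuronal nuclei, served to sort NeuN+ nuclei, here also called neurons, from NeuN– nuclei, the glia. Because 1 sham NeuN– preparation failed, 11 libraries remained: 3 kainate NeuN+, 3 sham NeuN+, 3 kainate NeuN– and 2 sham NeuN–, numbered 1 and 3. The protocol text of the samples names right hippocampi, whereas the left side is given by their titles and by the methods, and is taken as correct.

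In oligodendrocytes, Sox10 and Olig2 set the identity of the lineage, and Myrf switches on myelin genes as precursors mature. Proteins of compact myelin then glue the membrane layers together, while others sit at the inner loop, the outer surface or the tight junctions between the layers. Messenger RNA of some of these genes, that of Mbp above all, is carried out of the cell body into the processes, so nuclear RNA is one portion of a gene's transcripts. The NeuN– sort holds oligodendrocytes together with their precursors, astrocytes, microglia and vascular cells. In such bulk samples, fewer oligodendrocytes and less RNA per oligodendrocyte cannot be told apart.

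Depth ranged from 12058875 to 45428465 counts per library. RNA input was 1 ng with 10 cycles of PCR except in kainate NeuN– replicate 2 and sham NeuN– replicate 1, where it was near 0.05 ng and took 15 cycles. For kainate and sham libraries of one fraction and number, the correlations of their deviations from the group means were 0.161 to 0.787 over 5 pairs. Libraries of unlike number were not compared in this way. The libraries of number 1 stood apart in both fractions. In NeuN– nuclei they had 0.169% and 0.176% of counts on mitochondrial genes, against 0.0228% to 0.0373% in the other 3. In NeuN+ nuclei they had 0.0519% and 0.061%, against 0.00939% to 0.0194% in the others. No pair of libraries of a group held identical counts. P-values here measure the spread between pools. Where library numbers were fitted as blocks, they measure only the spread left within numbers.

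The 9 genes lie on 8 chromosomes of the mouse genome (GRCm38, the assembly of mm10). Mobp lies at chr9:120149707-120181484 on the plus strand. Mal lies at chr2:127633226-127656695 and Ermn at chr2:58045113-58052864, both on the minus strand. Cldn11 (chr3:31149920-31164324) and Cnp (chr11:100574904-100591729) are on the plus strand. Mag (chr7:30899176-30914873), Mog (chr17:37010743-37023398) and Opalin (chr19:41061710-41077113) are on the minus strand. The exons of Cnp share 154 bases with Dnajc7 (4.23% of its exonic bases) and those of Ermn share 237 bases with Galnt5 (6.52%), both on the opposite strand, and Mobp shares 79 bases (1.15%) with Gm38642 on its own strand. The library kit does not mark strand, so reads from such overlaps cannot be told apart.

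The bases before the start sites are shown for Mag, Cnp and Mog, which hold the letters bound by Myrf, and for Mobp, which holds the most matches to the core letters of Sox factors. Windows were read from RefSeq's GRCm38.p6 sequence, available for 8 of the 9 genes, from 250 bases before the RefSeq start up to the base before the outermost annotated start. Capitals mark CTGGCAC or CTGGTAC (Myrf) and ACAAAG (Sox), each on either strand.
Mag (chr7:30914923-30915172, minus strand): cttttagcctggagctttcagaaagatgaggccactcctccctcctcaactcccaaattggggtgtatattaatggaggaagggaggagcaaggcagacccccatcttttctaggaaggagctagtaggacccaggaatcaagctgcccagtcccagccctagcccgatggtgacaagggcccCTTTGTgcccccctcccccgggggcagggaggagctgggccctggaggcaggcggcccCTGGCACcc
Cnp (chr11:100574689-100574903, plus strand): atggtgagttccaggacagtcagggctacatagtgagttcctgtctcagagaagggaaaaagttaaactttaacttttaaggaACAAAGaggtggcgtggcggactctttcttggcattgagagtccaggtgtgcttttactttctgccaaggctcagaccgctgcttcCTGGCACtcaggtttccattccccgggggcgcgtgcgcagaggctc
Mog (chr17:37023399-37023648, minus strand): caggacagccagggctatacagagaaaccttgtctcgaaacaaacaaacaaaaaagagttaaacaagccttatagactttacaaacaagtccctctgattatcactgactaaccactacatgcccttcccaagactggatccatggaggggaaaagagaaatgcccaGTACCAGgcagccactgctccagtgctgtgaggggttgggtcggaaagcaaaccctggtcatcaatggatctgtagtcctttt
Mobp (chr9:120149492-120149706, plus strand): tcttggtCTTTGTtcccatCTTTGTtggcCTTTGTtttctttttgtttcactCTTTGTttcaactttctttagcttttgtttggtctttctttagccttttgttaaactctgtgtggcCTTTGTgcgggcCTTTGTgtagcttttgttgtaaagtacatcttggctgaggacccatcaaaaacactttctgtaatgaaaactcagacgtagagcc
The Myrf letters occurred in 3 of the 8 windows, and in 5.93% of 32851 windows of 250 bases before all start sites. The Sox letters occurred in 4 of the 8 windows, those of Mobp, Cnp, Mag and Opalin, and in 16.5% of all windows. Mobp held 6 Sox matches, and 1 of the 32851 windows, its own, held 6 or more. The E-box letters CAGCTG (13.0% of all windows) and the TATA letters TATAAA (12.4%) were in 0 of the 8 windows. The marked matches do not overlap each other, and a match describes sequence, not a binding site.

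Where the 9 genes were expressed was asked first, by comparing NeuN+ with NeuN– nuclei. All 9 were far lower in NeuN+ nuclei in the fit over all 4 groups, with each treatment weighted alike, by 20.3-fold for Mbp to 85.2-fold for Cldn11. Every NeuN+ library lay below every NeuN– library for 9 of 9 genes, which held for 6.31% of all genes tested. At FDR below 0.25, the calling threshold used throughout, 9 of 9 were called lower over both treatments (20.4% of all genes were called lower), 9 of 9 in sham (7.63%) and 9 of 9 after kainate (9.39%). The log2 fold changes ran from -4.73 (Mbp) to -7.10 (Cldn11) in sham, with FDRs of 0.00139 to 0.00147, and from -3.95 (Mbp) to -5.79 (Mag) after kainate, with FDRs of 0.00122 to 0.00155. The median log2 fold change of the 9 genes over both treatments was -5.71, and that of all genes tested was -0.47.

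Compact myelin is held together by basic proteins on the inner face of the membrane. Mbp, myelin basic protein, lies on chromosome 18 from base 82475146 to 82585637 of the plus strand. It reached 4705 and 1762 normalized CPM (counts scaled to a common library total) in sham NeuN– libraries 1 and 3, and 2502, 1761 and 640 CPM in kainate NeuN– libraries 1 to 3. In NeuN+ nuclei it stood at 109, 117 and 139 CPM in sham and 81.0, 121 and 115 CPM after kainate. The 5 NeuN– values lay well above the 6 NeuN+ values, and the log2 fold change of -4.34 (standard error (SE) 0.42, FDR = 3.3e-05) was the smallest of the 9 genes. Mobp, a small basic protein of compact myelin, held 2307 and 994 CPM in sham NeuN– libraries and 1538, 1053 and 748 CPM in kainate NeuN– libraries. Its NeuN+ values were 15.2, 20.3 and 49.2 CPM in sham and 9.75, 32.5 and 64.6 CPM after kainate, lowest in number 1 and highest in number 3 under both treatments. The log2 fold change of Mobp between the fractions was -5.42 (SE 0.55, FDR = 3.3e-05).

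Mal, a membrane raft protein involved in sorting cargo to myelin, gave 2551 and 378 CPM in sham NeuN– libraries and 1363, 398 and 186 CPM in kainate NeuN– libraries. Its NeuN+ levels were narrow, 13.2, 15.0 and 16.9 CPM in sham and 9.89, 12.9 and 13.4 CPM after kainate. Cldn11, the claudin of the tight junctions between myelin layers, gave 636 and 60.1 CPM in sham NeuN– libraries and 463, 129 and 61.3 CPM in kainate NeuN– libraries. In NeuN+ nuclei it stood at 2.95, 1.92 and 2.77 CPM in sham and 2.99, 3.39 and 5.90 CPM after kainate, which rests on 42 to 133 raw counts per library. These 2 genes had the largest differences between the fractions in the fit without a block, with log2 fold changes of -6.17 (SE 0.61, FDR = 3.3e-05) for Mal and -6.41 (SE 0.68, FDR = 3.52e-05) for Cldn11. With the block within fractions Mag came first instead, at -6.00 against -5.72 for Cldn11 and -5.60 for Mal.

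Cnp, a phosphodiesterase that keeps cytoplasmic channels open in non-compact myelin, reached 2129 and 434 CPM in sham NeuN– libraries and 1302, 588 and 221 CPM in kainate NeuN– libraries. In NeuN+ nuclei its levels were 33.3, 39.3 and 36.1 CPM in sham and 24.3, 31.5 and 26.1 CPM after kainate. The 3 kainate values lay below the 3 sham values without overlap, which 3.6% of all genes tested did. Mag, the adhesion protein that faces the axon, gave 3163 and 677.5 CPM in sham NeuN– libraries and 2981, 1331 and 603 CPM in kainate NeuN– libraries. Its NeuN+ levels were 9.87, 24.9 and 31.1 CPM in sham and 9.46, 28.8 and 50.2 CPM after kainate, lowest in the number 1 libraries of both treatments. The log2 fold changes between fractions were -4.91 (SE 0.51, FDR = 3.41e-05) for Cnp and -6.12 (SE 0.65, FDR = 3.52e-05) for Mag.

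On the outer surface, Mog, known as an autoantigen in demyelinating disease, gave 1018 and 232 CPM in sham NeuN– libraries and 501, 249 and 103 CPM in kainate NeuN– libraries. Its NeuN+ values were 6.04, 9.88 and 12.7 CPM in sham and 3.70, 7.72 and 8.83 CPM after kainate. Opalin, a transmembrane glycoprotein of the paranodal loops, gave 273 and 66.8 CPM in sham NeuN– libraries and 336, 149 and 108 CPM in kainate NeuN– libraries. In numbers 1 and 3, which have both treatments, the kainate library lay above the sham library. In NeuN+ nuclei Opalin stood at 1.54, 2.76 and 3.74 CPM in sham and 1.99, 4.74 and 6.58 CPM after kainate, from 23 to 186 raw counts. Ermn, a cytoskeletal protein of late oligodendrocytes, gave 508 and 102 CPM in sham NeuN– libraries and 384, 189 and 87.3 CPM in kainate NeuN– libraries. Its NeuN+ levels were 4.43, 5.05 and 7.90 CPM in sham and 4.05, 8.16 and 8.69 CPM after kainate, ranges that overlap. The log2 fold changes between fractions were -5.71 (SE 0.53) for Mog, -5.72 (SE 0.51) for Opalin and -5.34 (SE 0.51) for Ermn, each with FDR = 3.3e-05.

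**Figure D1:**
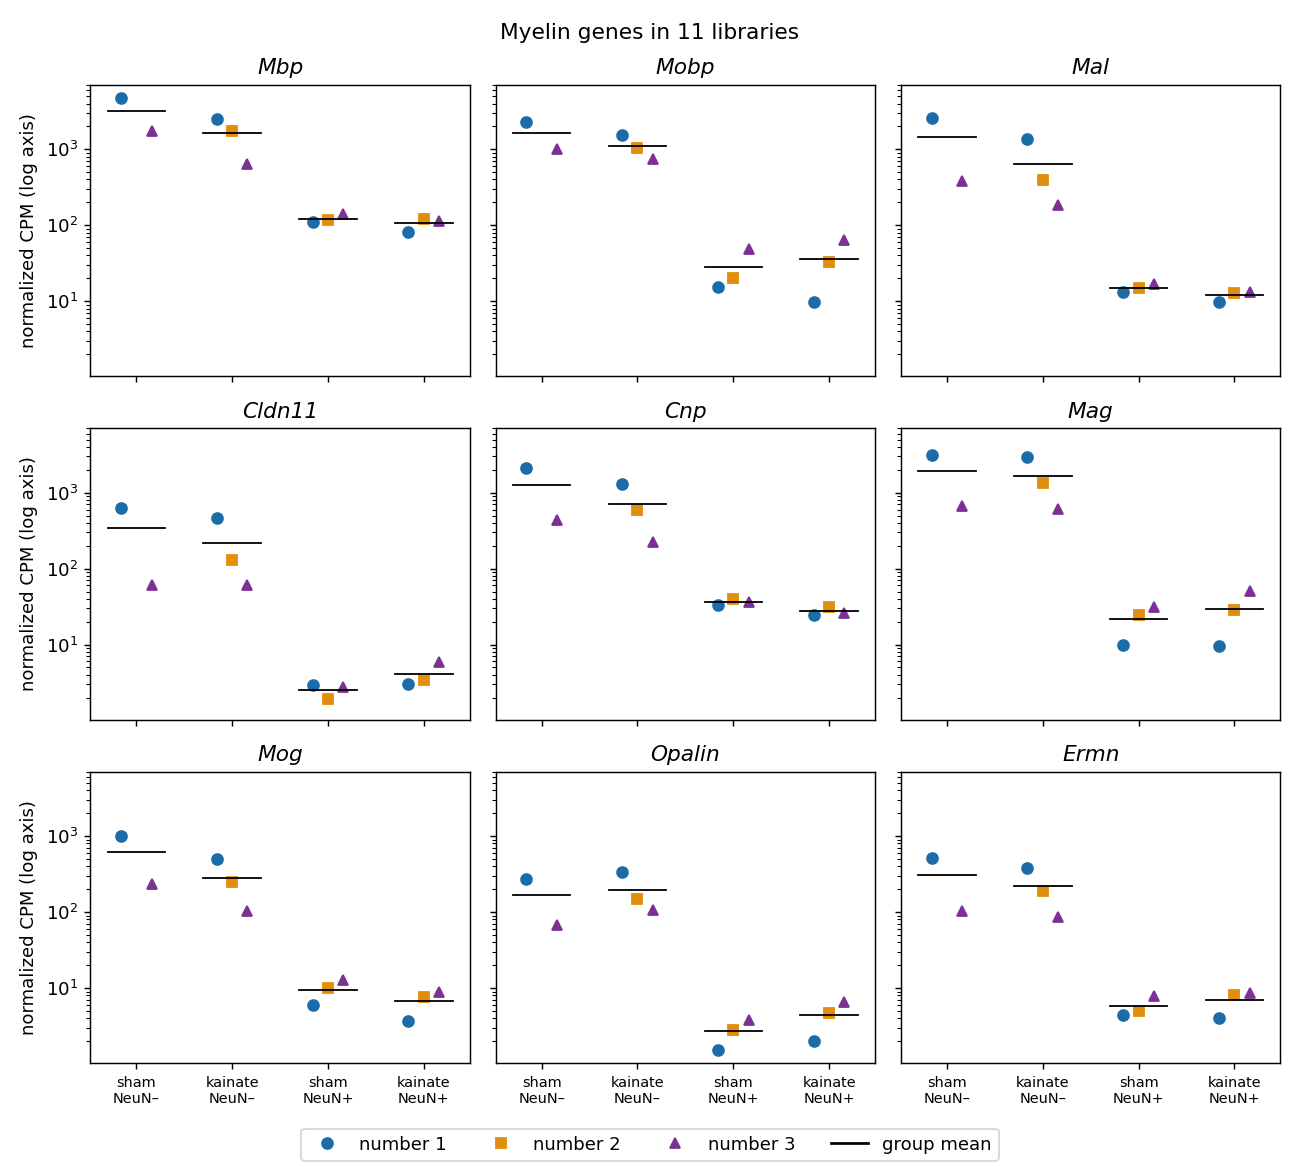
Normalized CPM (log axis) of the 9 myelin genes in each of the 11 libraries by group, with symbols for the library numbers and bars for the group means. Every NeuN– point lies above every NeuN+ point of its gene, and within NeuN– nuclei number 1 is highest and number 3 lowest in each group.

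Per length, as mean CPM per kilobase of exonic sequence, the order of the genes differed between fractions. In sham NeuN– nuclei it ran from Mal (527 ± 553) and Mag (472 ± 432) through Mbp (382 ± 246), Mog (367 ± 326), Cnp (352 ± 329.5), Mobp (241 ± 136) and Cldn11 (186 ± 218) to Ermn (83.9 ± 78.9) and Opalin (57.7 ± 49.5; SD, n = 2). No neighbours in this order were separated beyond their ranges, and the same held after kainate, where Mag (402 ± 299; n = 3) came first and Ermn (60.5 ± 41.4) last. In sham NeuN+ nuclei Mbp (14.3 ± 1.87; n = 3) stood above Cnp (9.96 ± 0.821) in all 3 libraries without overlap, and so did Cnp above Mog (5.59 ± 1.95) and Mobp (4.12 ± 2.68) above Ermn (1.59 ± 0.508). Opalin was lowest there (0.91 ± 0.373). After kainate Mbp (12.5 ± 2.54) was again separate from Cnp (7.50 ± 1.03), and no other neighbours were.

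Within a pool the NeuN+ level of a gene can be given as a percentage of its NeuN– level. For Mag this was 0.312% and 4.59% in sham pools 1 and 3 and 0.317%, 2.16% and 8.33% in kainate pools 1 to 3. For Mbp it was 2.31%, 7.90%, 3.24%, 6.86% and 18.0% in the same order. Mbp had the highest percentage of the 9 genes in 4 of 5 pools, Cnp in the remaining one (sham pool 3, 8.33%), and Mag the lowest in 3 of 5. The percentages of the pools of number 1 lay below those of the other pools for each gene, while neuronal markers (8 genes, among them Rbfox3 and Snap25) summed to 568 to 846 CPM in NeuN– and 3188 to 7548 CPM in NeuN+ libraries. The part of the sort's purity in these percentages was not tested. Over the 5 NeuN– libraries the pairwise correlations of log2 CPM among the 9 genes had a median of 0.947 and were lowest for Mbp with Opalin (0.621). Over the 6 NeuN+ libraries the median was 0.664 and the lowest, Cldn11 with Cnp, was -0.692. Libraries share pools and a depth scaling, so these correlations are descriptions.

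**Figure D2:**
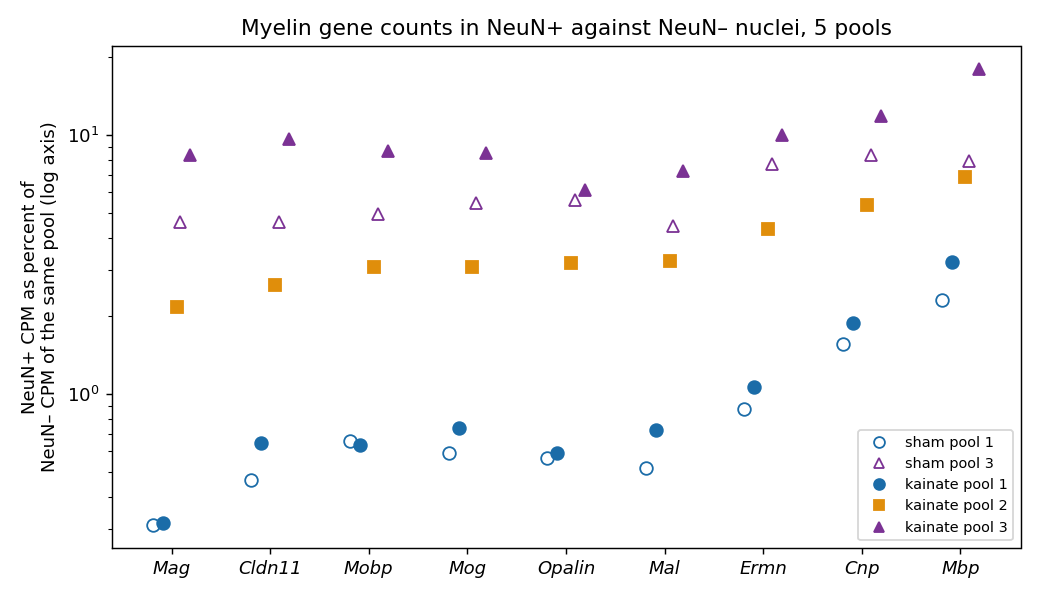
NeuN+ CPM as a percentage of the NeuN– CPM of the same pool (log axis) for the 9 genes, in order of their medians, with open symbols for the 2 sham pools and filled symbols for the 3 kainate pools. The pools of number 1 are lowest for every gene, and Mbp reaches 18.0% in kainate pool 3.

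The number of the library mattered for the level within NeuN– nuclei. In sham, library 1 lay above library 3 by 2.32-fold for Mobp to 10.6-fold for Cldn11, and after kainate by 2.06-fold for Mobp to 7.55-fold for Cldn11. In NeuN+ nuclei the order was turned for most genes: number 3 lay above number 1 by 3.24-fold in sham and 6.63-fold after kainate for Mobp, and by 3.15-fold and 5.31-fold for Mag, while Cnp differed by 1.08-fold and 1.07-fold. The summed levels of other cell types moved with the number in NeuN– nuclei as well. Astrocyte markers (7 genes) summed to 4458 and 1179 CPM in sham libraries 1 and 3 and to 3395, 1676 and 653 CPM in kainate libraries 1 to 3. Microglial markers (6 genes) gave 3561, 656, 1877, 1081 and 651 CPM and precursor markers (6 genes) 1843, 553, 1162, 554 and 273 CPM in the same order. Pericyte markers (4 genes) ranged from 29.6 to 144 CPM, and endothelial markers (5 genes) ran the other way, from 18.8 CPM to 30.6 CPM. No marker was at 0 in all libraries of a group. The part of these markers and of mitochondrial counts in the levels of the myelin genes was not tested. With low RNA input as a covariate, and no block by number, 0 of 9 genes were called after kainate in either fraction.

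Whether kainate changed the myelin genes in glia was asked next. By group means, 8 of 9 genes were lower and Opalin was higher in kainate NeuN– nuclei, but 0 of 9 were called in the fit without regard to the number (0.101% of all genes were called), with 0 of 9 at an unadjusted p under 0.05. The kainate and sham libraries overlapped for each gene. The log2 fold changes ran from -1.17 (SE 0.75) for Mal, -1.14 (SE 0.67) for Mog and -0.98 (SE 0.56) for Mbp to -0.23 (SE 0.81) for Mag and 0.22 (SE 0.65) for Opalin, with a median of -0.68 against 0.02 over all genes. DESeq2's Wald test also called 0, with 0 at an unadjusted p under 0.05, and of all 40714 genes it called 63 lower and 191 higher. These group means rest on sham library 1: without it 8 of 9 genes had values above 0, from 0.19 for Mobp to 1.89 for Cldn11, and Mbp was at -0.08. Without sham library 3, Mal (-1.98) and Mog (-1.84) were called (FDR = 0.241 for each), and 1.06% of all genes were called lower and 6.59% in either direction.

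Since the libraries were taken to pair by number, the comparison was also made within numbers, with the number as a block in each fraction. Then 4 of 9 genes were called lower after kainate in NeuN– nuclei, and 2.86% of all genes were called lower. Mbp fell by 1.19 on the log2 scale (SE 0.22, FDR = 0.000224), Mog by 1.10 (SE 0.22, FDR = 0.000662), Mal by 0.96 (SE 0.21, FDR = 0.0029) and Cnp by 0.84 (SE 0.21, FDR = 0.0136), which are 2.27-fold, 2.14-fold, 1.95-fold and 1.79-fold. In number 1, kainate stood at 0.532 of sham for Mbp, 0.492 for Mog, 0.534 for Mal and 0.611 for Cnp. In number 3 it stood at 0.363, 0.445, 0.491 and 0.509 in the same order, so both pairs had the same direction. In number 1 the sham library was made from near 0.05 ng of RNA and the kainate library from 1 ng. Both libraries of number 3 had 1 ng. Low input was not fitted together with the block, so its part in these calls was not tested. The other 5 genes were not called: Mobp -0.50 (SE 0.23, FDR = 0.409), Ermn -0.31 (SE 0.22, FDR = 0.788), Cldn11 -0.22 (SE 0.23, FDR = 0.939), Mag -0.13 (SE 0.21, FDR = 0.991) and Opalin 0.49 (SE 0.22, FDR = 0.394). Mag was at 0.942 and 0.890 of sham in the 2 pairs, and Opalin at 1.23 and 1.61. The median log2 fold change of the 9 genes was -0.50, against 0.11 over all genes.

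The block in NeuN– nuclei rests on 2 pairs, since kainate library 2 has no sham partner. With 1 block for both fractions 0 of 9 were called (Mbp at -1.02, FDR = 0.675), and of all 40714 genes 186 were called lower and 441 higher. Astrocyte markers moved in the fit with the block within fractions, where 4 of 7 were called lower. Gfap, a filament protein that rises in reactive astrocytes, was higher there by 1.77 (SE 0.26, FDR = 2.07e-06). Called lower in that fit were also 2 of 6 microglial, 4 of 6 precursor and 1 of 4 pericyte markers. Of 8 neuronal markers 1 was higher and 1 lower, and of 5 endothelial markers 0 were called. Their part in the result was not tested.

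In NeuN+ nuclei, 0 of 9 were called after kainate without the block (0.165% of all genes were called), with 0 at an unadjusted p under 0.05 in edgeR or DESeq2. The values ran from -0.50 (SE 0.62) for Mog to 0.72 (SE 0.60) for Opalin. With the block, 3 of 9 were called, and 5.09% of all genes were called. Opalin was higher by 0.71 (SE 0.22, FDR = 0.0756) and Cldn11 by 0.70 (SE 0.23, FDR = 0.0916), while Mog was lower by a log2 fold change of -0.51 (SE 0.19, FDR = 0.235). Opalin in kainate stood at 1.29, 1.72 and 1.76 of sham in numbers 1, 2 and 3, and Mog at 0.612, 0.782 and 0.697. Cldn11 was at 1.01, 1.76 and 2.13, and its kainate values lay above all sham values, as for 4.26% of all genes. Cnp, whose groups did not overlap, had a log2 fold change of -0.41 (SE 0.18, FDR = 0.372). These NeuN+ calls come from levels of at most 12.7 CPM, and 0 of 9 were called when NeuN+ libraries were fitted alone with the block or with 1 block for both fractions (FDR = 1 for Opalin, Cldn11 and Mog). The call was also lost for Mog without either NeuN+ library of number 1 or sham NeuN– replicate 1, and for all 3 genes without either NeuN+ library of number 3. In the fit with the block within fractions 4 of 7 astrocyte markers were called higher and 2 lower, with Gfap at 1.78 (SE 0.22, FDR = 3.17e-08). Of 8 neuronal markers 2 were higher and 1 lower, of 6 microglial markers 1 higher and 1 lower, and of 6 precursor markers 1 higher. Of 4 pericyte and 5 endothelial markers 0 were called. The part of these markers in the values was not tested.

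**Figure D3:**
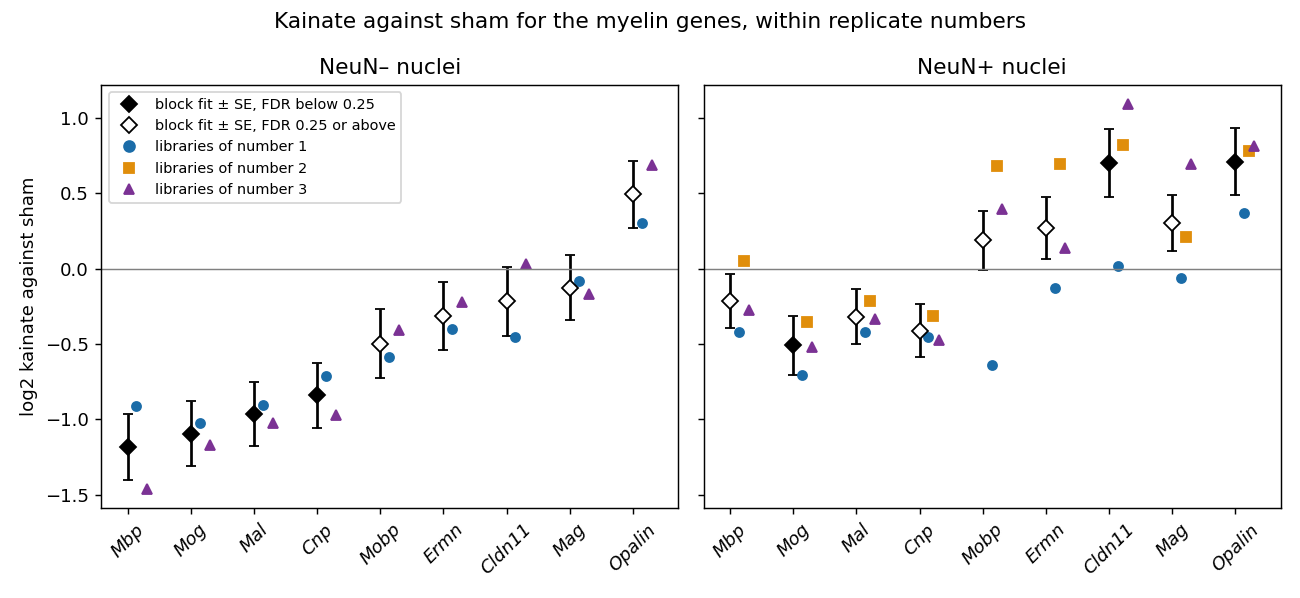
Log2 kainate against sham in NeuN– (left) and NeuN+ nuclei (right) for the 9 genes, as diamonds with the SE from the block fit (filled where FDR was below 0.25) and as coloured symbols for the difference between libraries of 1 number. In NeuN– nuclei Mbp, Mog, Mal and Cnp lie below 0 in both pairs and Opalin above 0 in both.

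Whether the kainate effect differed between fractions was tested as an interaction. Without the block 0 of 9 were called (0.00246% of all genes), with 0 at an unadjusted p under 0.05 in edgeR or DESeq2, and all 9 values were above 0, from 0.46 (SE 0.90) for Cnp to 1.37 (SE 1.14) for Cldn11. With the block within fractions, Mbp was called, with a kainate effect 0.97 higher in NeuN+ than in NeuN– nuclei (SE 0.28, FDR = 0.0913), and 1.23% of all genes were called in that direction. The next was Cldn11 (0.92, SE 0.32, FDR = 0.293). Markers of other cell types moved too: the interaction values of 7 of 7 astrocyte, 6 of 6 microglial, 6 of 6 precursor and 4 of 4 pericyte markers were above 0 without the block, and with it 4, 2, 2 and 1 of them were called in this direction. Of 5 endothelial markers 2 were above 0 without the block and 0 with it, and 0 were called. Their part in the result was not tested. The Mbp call was lost without kainate NeuN– replicate 3 or sham NeuN– replicate 3, where Cldn11 was called instead. With the pool as the block, the Mbp value was 0.78 (SE 0.73, FDR = 1), and with 1 block for both fractions it was not called either (FDR = 1).

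A ratio of 2 genes within a library does not depend on the scaling of that library. Raw counts of the 9 genes were therefore divided by those of the 8 transcription regulators of the lineage, a comparison added after the values had been seen. With the block, the log2 fold changes in NeuN– nuclei were 0.19 (SE 0.21, FDR = 0.953) for Myrf, 0.18 (SE 0.23, FDR = 0.97) for St18 and -0.13 (SE 0.22, FDR = 0.991) for Sox10, but -1.30 (SE 0.22, FDR = 6.97e-05) for Olig1. Olig1 and Olig2 were the 2 of 8 regulators called, both lower. Of the 8 values, 6 were below 0, with a median of -0.53.

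For Mbp every kainate library was below every sham library against 7 of 8 regulators, the exception being Olig1. The Mbp to Myrf ratio was 4.94 and 4.95 in sham libraries 1 and 3 and 2.42, 2.02 and 1.5 in kainate libraries 1 to 3, where 11.6% of genes with a mean of at least 10 counts separated in this direction. Against Olig2 it was 11.6 and 10.8 in sham and 8.42, 9.51 and 8.51 after kainate, where 0.519% of genes separated. Of all genes, 3.62% separated against Sox10, 13.0% against St18, 1.28% against Tcf7l2 and 1.25% against each of Nkx6-2 and Zfp488. Against Olig1, where 0.101% of genes separated, the groups of Mbp overlapped, with 3.92 and 4.89 in sham and 4.02, 5.42 and 5.59 after kainate. Mog was lower without overlap against Myrf and Sox10 only, and Mobp against Myrf and St18 only. Compared within numbers 1 and 3 instead, Mog was lower after kainate in both pairs against every regulator but Olig1, as was Mbp. Against Olig2, Mog stood at 1.69 after kainate and 2.5 in sham in number 1, and at 1.37 and 1.42 in number 3. The Mog to Olig1 ratio overlapped as well, 0.848 and 0.645 in sham and 0.806, 0.768 and 0.903 after kainate. Opalin was lower against none and higher against 4 of 8 regulators (Olig1, Olig2, Nkx6-2 and Zfp488), for which 23.2%, 16.2%, 11.2% and 16.8% of genes were higher. Against Olig1, Cnp, Mag and Ermn were higher too, and 0 of 9 genes were lower. These ratios are a description without a test.

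**Figure D4:**
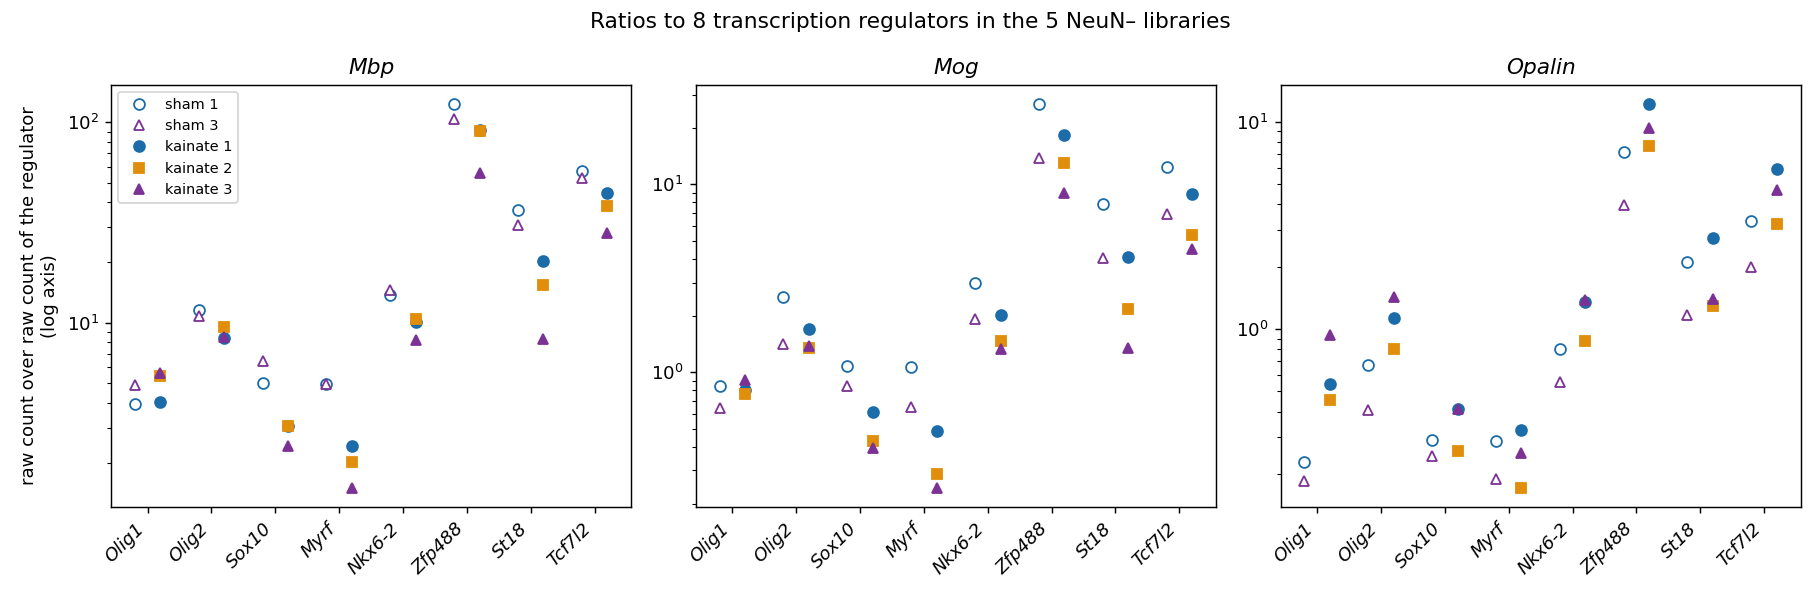
Raw counts of Mbp (left), Mog (middle) and Opalin (right) over the raw counts of each of 8 transcription regulators (log axis) in the 5 NeuN– libraries, with open symbols for sham and filled symbols for kainate. The sham ratios of Mbp lie above the kainate ratios for 7 of 8 regulators and overlap for Olig1, whereas Mog separates for Myrf and Sox10 only.

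Other genes of the lineage came from 5 lists: other mature oligodendrocyte genes, myelin lipid synthesis, myelin junctions and paranodes, transcription regulators, and newly formed oligodendrocytes. Between the fractions, 19 of 20 mature genes, 6 of 6 lipid genes, 7 of 7 junction genes, 8 of 8 regulators and 4 of 5 newly formed genes were called lower in NeuN+ nuclei, as were 20.4% of all genes. Omg, which neurons also express, was not called (-0.59, SE 0.56, FDR = 0.487), and Cemip2, a membrane protein linked to hyaluronan turnover, was higher by 1.15 (SE 0.24, FDR = 0.00397).

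After kainate in NeuN– nuclei, 0 of 46 genes of the 5 lists were called without the block in edgeR, with 3 at an unadjusted p under 0.05. DESeq2's Wald test called 1, Klk6, and of all 40714 genes it called 191 higher and 63 lower. With the block, 11 of 20 mature genes were called lower and 2 higher (2.86% of all genes were called lower and 2.93% higher), with a list median of -0.63. Among those lower were Omg (-1.39, SE 0.24), Sept4 (-1.22, SE 0.22) and Plekhb1 (-1.08, SE 0.23), while Ppp1r14a, Gpr37, Anln, Pllp, Qdpr, Enpp2 and Gsn fell by 0.92 to 0.57 on the log2 scale. The 2 that rose were Klk6, a secreted serine protease (2.94, SE 0.37, FDR = 1.06e-07), and Trf, the iron carrier transferrin (1.28, SE 0.24, FDR = 0.000285). Klk6 held 6.20 and 2.73 CPM in sham and 60.2, 24.4 and 16.2 CPM in kainate NeuN– libraries, without overlap.

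Against the same 2.86% of all genes, 3 of 6 lipid genes were called lower: Aspa, which frees acetate from N-acetylaspartate (-1.77, SE 0.23, FDR = 2.26e-07), Ugt8a, which makes galactosylceramide (-0.80, SE 0.23), and Fa2h, which hydroxylates its fatty acids (-0.72, SE 0.22). The junction list had 4 of 7 lower, among them Gjc3 (-1.37, SE 0.22), Cntn2 (-1.16, SE 0.23) and Jam3 (-0.64, SE 0.23). Gjb1, which encodes connexin 32, was higher (1.18, SE 0.27, FDR = 0.0038). Olig1 (-1.30, SE 0.22, FDR = 6.97e-05) and Olig2 (-0.78, SE 0.26, FDR = 0.102) were the 2 of 8 regulators called, both lower. Gpr17, a receptor of newly formed oligodendrocytes, was lower by a log2 fold change of -2.30 (SE 0.24, FDR = 5.55e-10), from 867 and 249.9 CPM in sham to 245, 126 and 36.1 CPM after kainate. Enpp6 (-1.29, SE 0.25) and Itpr2 (-0.70, SE 0.22) were the others called of these 5.

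In NeuN+ nuclei 1 of 46 list genes, Cemip2, was called without the block in edgeR, and 2 in DESeq2, Gjb1 and Cemip2. Of all 40714 genes, edgeR called 64 higher and 3 lower, and DESeq2 292 higher and 68 lower. With the block, where 3.19% of all genes were called higher, 5 of 20 mature genes were called, all higher: Trf (1.37, SE 0.23), Apod (1.12, SE 0.20), Tspan2 (1.08, SE 0.18), Ppp1r14a (0.88, SE 0.25) and Tmem125 (0.84, SE 0.30). Gjb1 (1.93, SE 0.27), Jam3 (0.84, SE 0.19), Elovl7 (0.60, SE 0.20) and Sox10 (0.52, SE 0.20, FDR = 0.23) were higher too, while Gjc3 (-0.94, SE 0.22) and Gpr17 (-1.09, SE 0.22) were lower. Cemip2 was called both without (1.68, SE 0.32, FDR = 0.153) and with the block (1.68, SE 0.20, FDR = 2.04e-08), with 40.6, 50 and 39.9 CPM in sham and 123, 137 and 158 CPM after kainate. In the interaction 0 of 46 list genes were called without the block in edgeR or DESeq2, with 1 at an unadjusted p under 0.05 in each, and 0 with the pool as the block. The block within fractions, where 1.23% of all genes were called higher, called 3 of 7 junction genes, 2 of 6 lipid genes, 2 of 5 newly formed genes, 1 of 8 regulators and 3 of 20 mature genes with a kainate effect higher in NeuN+, and Klk6 with one lower (-2.26, SE 0.56, FDR = 0.0286).

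**Figure D5:**
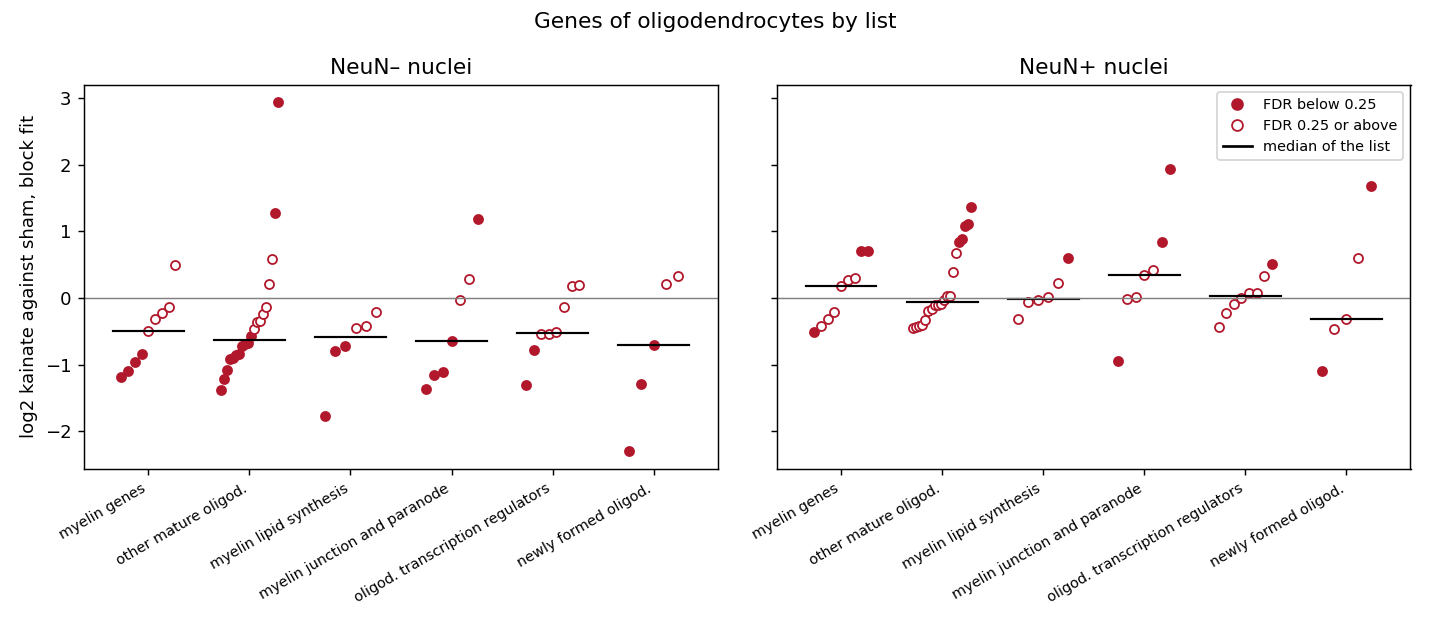
Log2 kainate against sham from the block fit for the 9 myelin genes and the 46 genes of the 5 lists, in NeuN– (left) and NeuN+ nuclei (right), filled where FDR was below 0.25, with bars for list medians. In NeuN– nuclei all 6 medians lie below 0, while Klk6 (2.94), Trf (1.28) and Gjb1 (1.18) rose.

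Genes whose pattern over the 11 libraries was most like the mean of the 9 were sought among 24713 other genes with a mean of at least 1 CPM. By Pearson's r on log2 CPM the 10 most alike included Itgb5 (0.9982), Npepl1, Carhsp1, Cd82, Serpinb1a, Fa2h, Hepacam, Rhog and Glul (0.9960). Libraries of both fractions enter this likeness. By Spearman's rank correlation 1 of these 10 was among the first 10.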

How the data were processed

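Nuclear RNA of 11 samples was sequenced after amplification of full-length cDNA. The methods describe sequencing pools on different instruments, with single or with paired reads. They do not say which library was in which pool, and the part of the instrument in these values was not tested. The authors trimmed reads with Trim Galore 0.4.3, aligned them to mm10 with Rsubread and used featureCounts with GENCODE release M16 to count unique alignments, and the deposited values are these raw counts. Genes lacking a symbol (105) were dropped, and filterByExpr (minimum count 10, minimum total count 15) kept 40714. After TMM scaling, edgeR's quasi-likelihood test was applied to 4 group means, with Benjamini-Hochberg adjustment over all genes and FDR below 0.25 as the threshold (R 4.3.3, edgeR 4.0.16, limma 3.58.1, DESeq2 1.42.0). One model held all libraries, and a separate fit per fraction was an alternative. The common biological coefficient of variation was 0.6, or 0.251 with replicate numbers as blocks in each fraction. In that block fit the spread of a gene had 3 residual degrees of freedom and 48 prior ones, which are shared over genes. Without the block these were 7 and 6.76. The numbers were taken to pair libraries because every kainate and sham pair of a fraction correlated above 0.1 in its deviations from the group means (0.161 to 0.787), although no source says what a number shares across treatments. NeuN+ and NeuN– libraries of one pool come from the same mice (0.24 to 0.668). The SE is the log2 fold change divided by the root of its F value. Normalized CPM use the TMM factors, and values per kilobase use the exonic bases of GENCODE release M21.

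The 9 genes, the 5 lists and the marker lists were chosen with earlier results of these data known. Named were the 9 genes in every comparison, list genes called after kainate with or without the block, Myrf, Sox10 and Olig2, and the 10 genes most like the 9. Gfap and other markers were named after their values were seen, as were the genes of the lists described between fractions. Alternatives were DESeq2's size factors and Wald test, no filter, a CPM of at least 1 in 3 libraries, genes without symbols, a newer and a robust fit, FDR below 0.05, low input as a covariate, leaving out libraries, and blocks by number or pool. Without a sham library of number 2, kainate NeuN– library 2 adds nothing to the NeuN– difference within numbers. Leaving out a sham NeuN– library leaves 1, assumed to vary like the other groups. The bisulfite samples were not used here, and some genes named by these rules are not reported here.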

Additional observations from a re-analysis of the deposited data

Results flagged for a closer look

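The kainate effect on Mbp differed between NeuN+ and NeuN– nuclei by the interaction test with the replicate block within each fraction, at FDR = 0.0913. In that fit Mbp was lower after kainate by a log2 fold change of -1.19 (SE 0.22) in NeuN– nuclei and stood at -0.21 (SE 0.18, FDR = 0.923) in NeuN+ nuclei. Without a block the interaction was 0.78 (SE 0.76, FDR = 1) and with the pool as the block 0.78 (SE 0.73, FDR = 1), so the call rests on the block within fractions. In the block fit 4 of 7 astrocyte, 2 of 6 microglial, 2 of 6 precursor and 1 of 4 pericyte markers were called in the same direction, so the shift was not particular to Mbp. In that block fit it was also lost without kainate NeuN– replicate 3 or sham NeuN– replicate 3.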

How the results depend on the processing

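The 9 calls between NeuN+ and NeuN– nuclei over both treatments held under 40 of 40 other settings, in sham and after kainate as well, with Mbp at -4.70 to -3.85 and Cldn11 at -6.85 to -5.12 over both. Scaling by total counts alone moved the median log2 fold change of all genes between the fractions from -0.47 to -0.98 and left these calls. The counts called after kainate depended on the replicate block. With the block within each fraction they were 4 in NeuN– nuclei, 3 in NeuN+ nuclei and 1 for the interaction, and settings added after the data were seen gave 5, 3 and 2 with DESeq2 size factors in that block, 5, 4 and 1 with total counts, 4, 1 and 1 with edgeR's newer quasi-likelihood method and 5, 4 and 4 with DESeq2's Wald test. A block fit of the NeuN– libraries alone called 6 and of the NeuN+ libraries alone 0. For these added settings, and for those below that leave out a library, the share of all genes called is not given here. Their counts therefore say only which calls of the 9 genes were kept. Leaving out 1 library, with or without the block, the counts ranged from 0 to 6, 0 to 4 and 0 to 3. In the block fit, leaving out either NeuN+ library of number 2 called 6 in NeuN– nuclei, leaving out kainate NeuN+ replicate 3 or sham NeuN+ replicate 3 called 0 in NeuN+ nuclei, and leaving out either NeuN+ library of number 1 called 3 in the interaction. In the block fit, leaving out a NeuN– library of number 1 or 3, of either treatment, leaves 1 pair of NeuN– libraries, whose spread is then taken from the NeuN+ libraries, so the 4 calls kept there are no check of that pair. Settings without a block, other than the one without sham NeuN– replicate 3 (2 calls), called 0 of 9 after kainate.

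Most changes of sign came with leaving out sham NeuN– replicate 1 or both low-input libraries. Without both of them, values that changed sign were, for kainate against sham in NeuN– nuclei, Mobp 0.23, Mal 1.06, Cldn11 2.15, Cnp 0.84, Mag 1.43, Mog 0.41, Ermn 1.24, and for the interaction Mbp -0.064, Mal -1.38, Cldn11 -1.46, Cnp -1.25, Mag -1.01, Mog -0.90, Opalin -1.04, Ermn -0.97. With low input as a covariate they were Cldn11 0.0706, Mag 0.20, Ermn 0.013 in NeuN– nuclei and Cnp -0.01 for the interaction. Where leaving out 1 library turned a sign, the ranges in NeuN– nuclei were Mobp -1.06 to 0.19, Mal -2.47 to 0.81, Cldn11 -2.03 to 1.89, Cnp -1.80 to 0.73, Mag -1.13 to 1.31, Mog -1.96 to 0.32, Opalin -0.55 to 1.59, Ermn -1.28 to 1.14. In NeuN+ nuclei they were Mobp -0.41 to 1.01, Mag -0.20 to 0.84. For the interaction they were Mbp -0.12 to 1.33, Mal -1.13 to 2.11, Cldn11 -1.20 to 2.69, Cnp -1.14 to 1.34, Mag -0.88 to 1.51, Mog -0.82 to 1.41, Opalin -0.87 to 1.23, Ermn -0.87 to 1.5. No value of changed sign was called, and the cause was not tested. Of the 10 genes most like the myelin genes, 9 remained among the first 10 without the TMM factors and 1 with Spearman's correlation. Depth limits the NeuN+ values of Opalin and Cldn11 most, with 23 to 186 and 42 to 133 counts per library, and counting precision does not cover the differences between pools.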
